A study of Mus musculus with 6 samples.

Results

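The Fc gamma receptors and the first proteins of their signalling path were followed as 8 genes in LPS-stimulated macrophages with and without ultrasound. The genes were taken by name: the IgG receptor genes Fcgr1, Fcgr2b, Fcgr3 and Fcgr4, the adaptor chain genes Fcer1g and Tyrobp, and the kinase genes Syk and Lyn. They are 8 of the 55335 mouse Ensembl gene identifiers in the deposited table, and each matched 1 identifier. All 8 passed the filter on low values, which asked for 1 FPKM or more as the average of the 6 libraries. FPKM values count fragments per transcript length and per mapped fragment of the library, so levels of different genes can be compared per length. In such bulk samples, fewer cells that make a transcript and less of it per cell cannot be told apart.

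Fc gamma receptors bind the constant part of IgG, and in macrophages they start the uptake of antibody-coated particles. The activating receptors carry no signalling motif of their own in the mouse and lean on the gamma chain encoded by Fcer1g, whose cytoplasmic tail holds an immunoreceptor tyrosine-based activation motif (ITAM). Src family kinases such as Lyn phosphorylate the tyrosines of that motif, Syk docks on them and passes the signal on. Fcgr2b is the inhibitory receptor: its tail holds a tyrosine-based inhibitory motif (ITIM) that recruits phosphatases. Tyrobp encodes DAP12, a related ITAM chain that serves other receptors of myeloid cells.

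RNA came from RAW 264.7 cells, a wild-type mouse macrophage line, in 2 groups of 3 libraries. In the LPS plus ultrasound group, cells received 200 ng/ml lipopolysaccharide (LPS) for 8 h and, within that period, 10 min of ultrasound (1 MHz, 50 mW/cm²) given as 200 µs pulses repeated at 1 kHz, a 20% duty cycle. In the LPS group, cells received the same LPS without ultrasound. Both groups carry the LPS stimulus, cells without LPS were not analysed here, and all libraries come from 1 cell line, so the response of these genes to LPS was not measured. Separate cultures are not stated for libraries of the same group, so the p-values speak only of library spread, some or all of which may be technical.

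The sequences that make these genes a signalling unit, and those that limit how well they can be told apart, are shown first, read from the GENCODE M21 transcripts. In the coding stretches of the ITAMs of Fcer1g and Tyrobp, each 45 bases, the capitals mark the codons of the 2 tyrosines on which Syk docks once they are phosphorylated, and in the 18 bases of the Fcgr2b ITIM they mark its tyrosine codon.
Fcer1g ITAM: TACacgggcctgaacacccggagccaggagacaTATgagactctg
Tyrobp ITAM: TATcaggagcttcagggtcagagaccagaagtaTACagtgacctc
Fcgr2b ITIM: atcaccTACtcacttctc

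Among the coding sequences of the first-numbered transcript of each gene, the ITAM pattern (tyrosine, any pair of residues, leucine or isoleucine, then the same again after a gap of 6 to 8 residues) occurred once in Fcer1g, once in Tyrobp and in 0 of the other 6. The ITIM pattern (isoleucine, leucine, valine or serine, any residue, tyrosine, any pair, then leucine, isoleucine or valine) was not particular to Fcgr2b. It occurred 3 times in Fcgr1, 2 times in Lyn and 1 time each in Fcgr2b, Fcgr4, Fcer1g and Tyrobp. Where in the protein a match lies was not asked. Fcgr2b and Fcgr3 share part of the code for their IgG-binding domains. Their longest identical coding run has 129 bases, at coding bases 278 to 406 of Fcgr2b and 263 to 391 of Fcgr3. It is shown because reads that fall wholly inside it cannot be assigned to one gene.
Fcgr2b and Fcgr3 shared run: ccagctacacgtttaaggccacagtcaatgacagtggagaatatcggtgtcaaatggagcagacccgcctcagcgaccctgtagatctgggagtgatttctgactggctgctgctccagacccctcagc

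Of all 50-base windows of the annotated Fcgr3 transcripts, 9.58% also occur in Fcgr2b transcripts, and 2.54% of its 100-base windows do. The next longest run between members was 14 bases, between Fcgr3 and Fcgr4. Fcgr1, Fcgr4, Fcer1g, Tyrobp and Syk share 0% of their 50-base windows with any other annotated gene. For Lyn, 18.3% of the 50-base windows recur in another gene, and 13.4% recur in Gm11787, an unprocessed pseudogene on the same chromosome. How the authors divided such reads is not given in the sources used here, so values of Fcgr2b, Fcgr3 and Lyn carry that uncertainty. Exons of 2 members, Fcgr2b and Lyn, overlap a predicted gene on the opposite strand, and whether reads were counted by strand is not given either.

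The libraries carried a macrophage profile. Of 10 macrophage markers 8 reached a mean of 1 FPKM, led by the lysosomal glycoprotein gene Cd68 at 668 ± 30.3 FPKM in LPS plus ultrasound libraries and 645 ± 35.1 FPKM in LPS libraries (SD, n = 3 each). Mrc1 and Mertk, the other 2, stayed below 1 FPKM. For other cells, 0 of 5 B cell, 0 of 6 NK cell, 0 of 7 mast cell, 0 of 6 neutrophil, 0 of 6 T cell, 0 of 8 skeletal muscle and 0 of 5 fibroblast markers reached 1 FPKM. Their highest were Cd79b, Prf1, Kit, S100a8, Cd4, Mylpf and Col1a1, with means over the 6 libraries of 0.587 FPKM (Mylpf) or less. The summed B cell markers ran from 0.133 to 0.395 FPKM in LPS plus ultrasound libraries and from 0.495 to 0.770 FPKM in LPS libraries, with Ms4a1 at 0 in all 6. Their part in the lower Fcgr2b described below was not tested. Among dendritic cell markers Itgax passed, 1 of 5, and among osteoclast markers 3 of 6 passed, led by Dcstamp at 16.9 ± 1.08 FPKM in LPS plus ultrasound libraries and 14.4 ± 1.69 FPKM in LPS libraries.

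The groups were compared with limma on log2(FPKM + 1) across 11270 tested genes, and differences below are LPS plus ultrasound minus LPS on that scale, which understates the change of low genes. The threshold was 0.05 on the limma p after Benjamini-Hochberg adjustment. It was passed by 2 genes (0.0177%) that were higher and 0 (0.0%) that were lower, and with the replicate number as a block by 13 genes (0.115%), 4 higher (0.0355%) and 9 lower (0.0799%). Without adjustment 1729 genes (15.3%) had p below 0.05, 697 higher (6.18%) and 1032 lower (9.16%), and 29.7% did with the block (12.6% higher, 17.1% lower). The higher ones made up 40.3% of those 1729. That share depended on scaling: it was 30.2% with libraries scaled to the same FPKM sum, 48.7% with median-ratio scaling and 48.6% with quantile normalization. LPS library 2 stood apart on principal component 1, which held 41.9% of the variance, at 28.8 against -17.7 to 2.03 for the other 5, and member values that move by over 1.5 times or turn sign without it are given so.

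None of the 8 genes passed the threshold, whether fitted without the block or with it. Among the 4 receptor genes, Fcgr2b and Fcgr1 were lower in every LPS plus ultrasound library than in any LPS library, Fcgr3 was higher in every same-numbered pair, and Fcgr4 overlapped. The adaptor genes Fcer1g and Tyrobp and the kinase genes Syk and Lyn overlapped between groups. An unadjusted limma p below 0.05 was found for 3 of the 8, Fcgr2b, Fcgr1 and Fcgr3, against 15.3% of all tested genes, and 4 of the 8 lay below 0, against 53.9%. Groups without overlap were found for 2 of the 8, both lower, against 13.4% of tested genes that were separate and lower and 9.8% that were separate and higher. With members this few, these counts are given as a description.

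**Figure D1:**
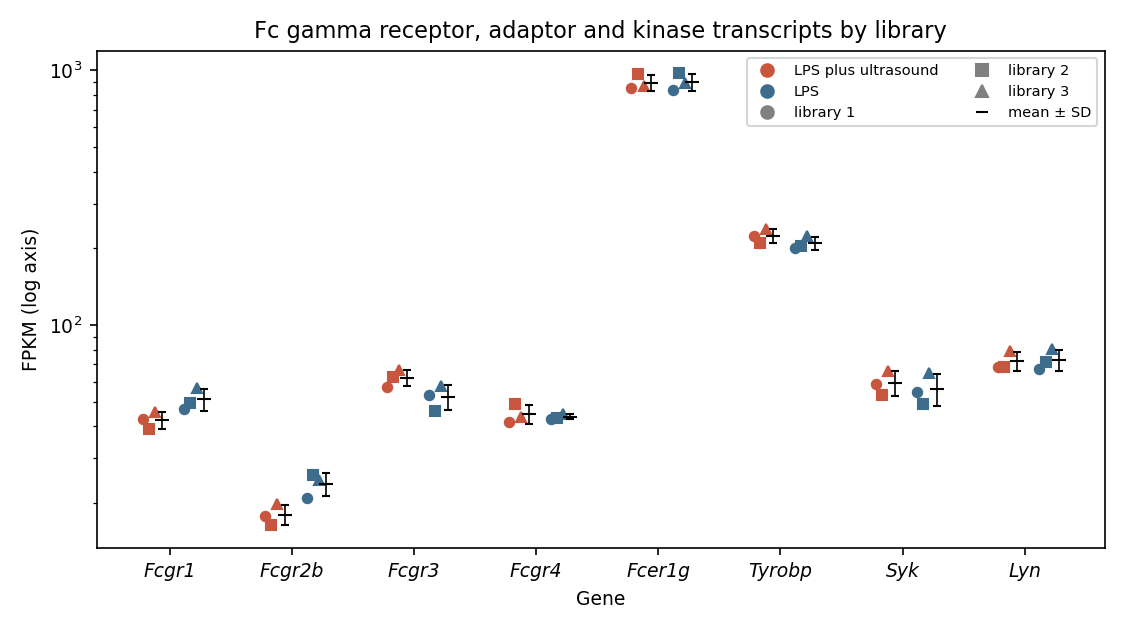
FPKM of each gene (horizontal axis) on a log axis, one symbol per library with LPS plus ultrasound left of LPS, and mean ± SD beside them (n = 3 each). Fcgr1 and Fcgr2b are lower in all 3 LPS plus ultrasound libraries, and library symbols of the same number tend to sit at similar heights in Syk, Lyn and Fcer1g.

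Fcgr2b (ENSMUSG00000026656), the inhibitory receptor gene, had 17.8, 16.5 and 19.7 FPKM in LPS plus ultrasound libraries 1, 2 and 3, against 21.0, 25.8 and 24.7 FPKM in LPS libraries 1, 2 and 3. The groups do not overlap, and LPS library 1 lies nearest to the LPS plus ultrasound libraries. The means were 18.0 ± 1.64 and 23.8 ± 2.51 FPKM (SD, n = 3 each), a ratio of 0.756 and a log2 difference of -0.38 ± 0.10 (SE; 95% interval -0.63 to -0.14). The gene did not pass (limma, Benjamini-Hochberg adjusted p = 0.22; 0.083 in the blocked fit). Its log2 difference of -0.38 lies at the edge of the central range of all tested genes, whose 5th percentile was -0.39.

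Fcgr1 (ENSMUSG00000015947) encodes the high-affinity IgG receptor, which interferon induces in macrophages. It had 42.6, 38.9 and 45.5 FPKM in LPS plus ultrasound libraries 1, 2 and 3, against 46.8, 49.6 and 56.8 FPKM in LPS libraries 1, 2 and 3. All LPS plus ultrasound libraries lay lower than all LPS libraries, and library 3 was the highest in each group. The means were 42.3 ± 3.28 and 51.1 ± 5.14 FPKM (SD, n = 3 each), a ratio of 0.829 and a log2 difference of -0.26 ± 0.10 (SE; 95% interval -0.49 to -0.04), short of the threshold (limma, Benjamini-Hochberg adjusted p = 0.28; 0.083 in the blocked fit).

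Fcgr3 (ENSMUSG00000059498), an activating receptor gene of low affinity, ran the other way. It had 57.2, 62.7 and 66.4 FPKM in LPS plus ultrasound libraries 1, 2 and 3, against 53.2, 45.9 and 57.4 FPKM in LPS libraries 1, 2 and 3. The groups overlap by a narrow margin, since LPS library 3 lies just above LPS plus ultrasound library 1, and all 3 same-numbered pairs were higher with ultrasound. The means were 62.1 ± 4.63 and 52.2 ± 5.81 FPKM (SD, n = 3 each), a ratio of 1.19 and a log2 difference of 0.25 ± 0.10 (SE; 95% interval 0.01 to 0.49), short of the threshold (limma, Benjamini-Hochberg adjusted p = 0.31; 0.12 in the blocked fit). Without LPS library 2 the log2 difference of Fcgr3 was 0.16. The sum of Fcgr2b and Fcgr3 was 75.0, 79.2 and 86.1 FPKM in LPS plus ultrasound libraries against 74.2, 71.7 and 82.2 FPKM in LPS libraries, and overlapped. That sum still depends on how reads of their shared run were assigned, since FPKM divides by length. The longest annotated transcript has 3544 bases for Fcgr2b and 1347 for Fcgr3.

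Fcgr4 (ENSMUSG00000059089), an activating receptor gene of intermediate affinity, had 41.5, 49.0 and 43.4 FPKM in LPS plus ultrasound libraries 1, 2 and 3, against 42.9, 43.1 and 44.8 FPKM in LPS libraries 1, 2 and 3. LPS plus ultrasound library 2 is the highest of the 6 and library 1 the lowest, so the groups overlap. The log2 difference was 0.03 ± 0.08 (SE; 95% interval -0.16 to 0.22; limma, Benjamini-Hochberg adjusted p = 0.88), and its sign turned without LPS plus ultrasound library 2.

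**Figure D2:**
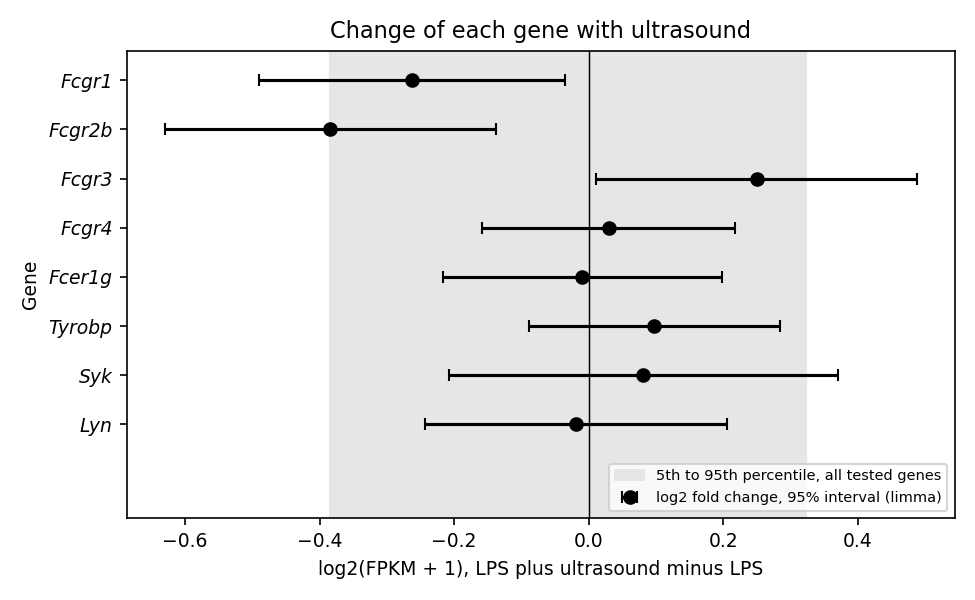
Log2 difference of each gene, LPS plus ultrasound minus LPS on log2(FPKM + 1), with the 95% limma interval; the grey band runs from the 5th to the 95th percentile of all 11270 tested genes (-0.39 to 0.32). The intervals of Fcgr1, Fcgr2b and Fcgr3 leave out 0 before adjustment, and those of the other 5 genes hold it.

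The balance between activating and inhibitory receptors was read as a ratio within each library, which does not depend on how a library was scaled. Fcgr3 over Fcgr2b was 3.21, 3.81 and 3.37 in LPS plus ultrasound libraries, against 2.53, 1.78 and 2.32 in LPS libraries. All ratios with ultrasound lay above all without, with a mean of 3.46 ± 0.311 against 2.21 ± 0.387 (SD, n = 3 each) and a log2 difference of 0.66. Fcgr4 over Fcgr2b was 2.33, 2.98 and 2.20 in LPS plus ultrasound libraries and 2.04, 1.67 and 1.81 in LPS libraries (log2 difference 0.43). Fcgr1 over Fcgr2b was 2.39, 2.37 and 2.30 in LPS plus ultrasound libraries and 2.23, 1.92 and 2.30 in LPS libraries (log2 difference 0.13). Its groups almost touch, at 2.305 and 2.298: its log2 difference was 0.06 without LPS library 2, and with 1 FPKM added to both genes its exact two-sided permutation p was 0.2. All 3 ratios share Fcgr2b, so they are not independent. The log2 difference of Fcgr2b itself, -0.38, lay near the 5th percentile of all tested genes, -0.39. Most tested genes divided by Fcgr2b would therefore be higher with ultrasound, and whether the activating receptor genes stand out from them was not tested. The sum of Fcgr1, Fcgr3 and Fcgr4 overlapped, at 149 ± 7.08 FPKM in LPS plus ultrasound libraries and 147 ± 10.8 FPKM in LPS libraries (SD, n = 3 each). In the exact permutation test, two-sided and adjusted over the 3 ratios by Benjamini-Hochberg, each gave p = 0.1 (n = 3 each), the smallest p that 3 against 3 libraries allow, so no ratio could pass.

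As shares of the summed FPKM of the 4 receptor genes, Fcgr2b made up 11.2%, 9.85% and 11.3% in LPS plus ultrasound libraries, against 12.8%, 15.7% and 13.4% in LPS libraries. Fcgr3 made up 35.9%, 37.5% and 38.0% in LPS plus ultrasound libraries, against 32.4%, 28.0% and 31.3% in LPS libraries. The share of Fcgr1 averaged 25.4 ± 1.83% and 29.9 ± 1.19%, and that of Fcgr4 26.7 ± 2.33% and 25.6 ± 1.05%, in LPS plus ultrasound and LPS libraries (SD, n = 3 each). The summed level of the 4 genes was 167 ± 7.91 FPKM in LPS plus ultrasound libraries and 171 ± 11.3 FPKM in LPS libraries and overlapped. Shares of 1 sum are tied to each other and were not tested.

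**Figure D3:**
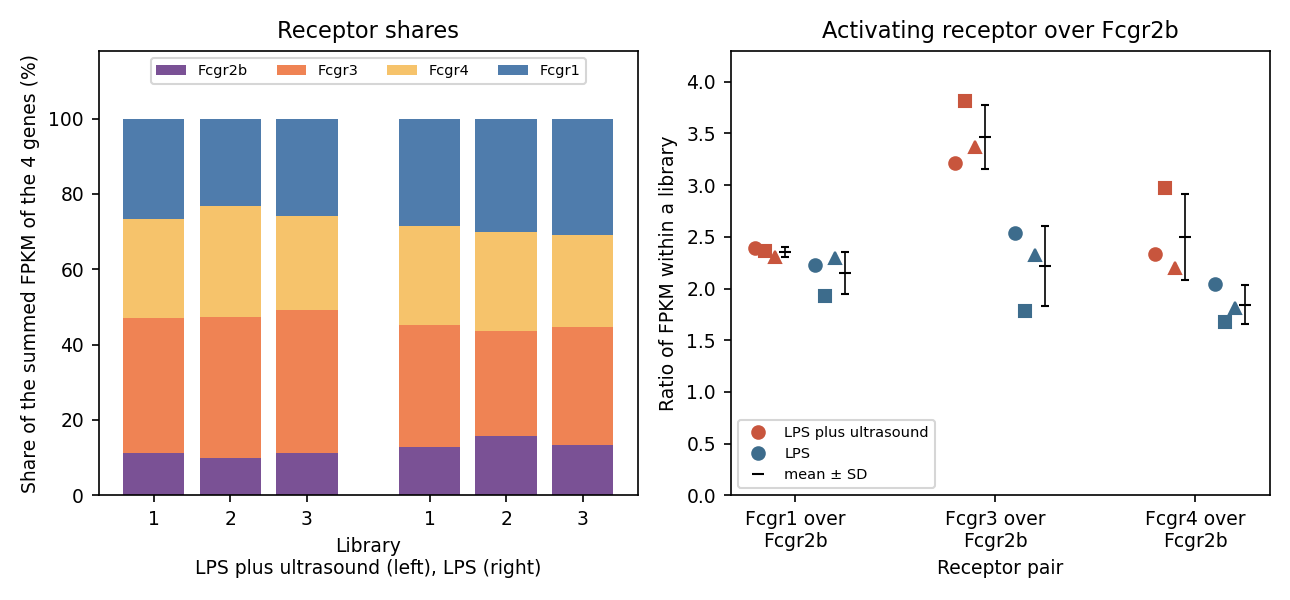
Left, share of each receptor gene in the summed FPKM of the 4 (%, bars, one per library). Right, FPKM of each activating receptor gene divided by that of Fcgr2b within a library, with mean ± SD (n = 3 each). All 3 LPS plus ultrasound libraries lie above all 3 LPS libraries for each ratio, at 3.21 to 3.81 against 1.78 to 2.53 for Fcgr3. Fcgr2b, the shared divisor, was itself lower in all 3 LPS plus ultrasound libraries.

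The adaptor chain genes were the most abundant of the set. Fcer1g (ENSMUSG00000058715) had 850.0, 968 and 869.6 FPKM in LPS plus ultrasound libraries 1, 2 and 3, against 838, 974 and 894 FPKM in LPS libraries 1, 2 and 3. Library 2 was the highest in both groups and library 1 the lowest, and the groups overlap almost entirely. The log2 difference was -0.01 ± 0.09 (SE; 95% interval -0.22 to 0.20; limma, Benjamini-Hochberg adjusted p = 0.97). Quantile normalization moved it to -0.32, with adjusted p = 0.26, further than the other 16 alternatives, and it was 0.05 without LPS library 2. Per length, Fcer1g stood 6.01 ± 0.415 times above the sum of Fcgr1, Fcgr3 and Fcgr4, whose proteins it serves, in LPS plus ultrasound libraries and 6.17 ± 0.751 times in LPS libraries (SD, n = 3 each).

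Tyrobp (ENSMUSG00000030579) had 223, 210.3 and 239 FPKM in LPS plus ultrasound libraries 1, 2 and 3, against 200.1, 204 and 224 FPKM in LPS libraries 1, 2 and 3. It was higher with ultrasound in each of the 3 same-numbered pairs, while the groups overlap. The log2 difference was 0.10 ± 0.08 (SE; 95% interval -0.09 to 0.28), short of the threshold (limma, Benjamini-Hochberg adjusted p = 0.57; 0.24 in the blocked fit). Fcer1g exceeded Tyrobp by 4.02 ± 0.514 times in LPS plus ultrasound libraries and 4.32 ± 0.411 times in LPS libraries (SD, n = 3 each).

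Among the kinase genes, Syk (ENSMUSG00000021457), the kinase that docks on the ITAMs shown above, had 58.5, 53.2 and 66.2 FPKM in LPS plus ultrasound libraries 1, 2 and 3, against 54.5, 49.1 and 64.7 FPKM in LPS libraries 1, 2 and 3. In both groups library 3 was the highest and library 2 the lowest, and each LPS plus ultrasound library lay slightly above its same-numbered LPS library. The log2 difference was 0.08 ± 0.12 without the block and 0.08 ± 0.05 with it (SE; limma, Benjamini-Hochberg adjusted p = 0.77 and 0.30), and it was -0.01 without LPS library 2.

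Lyn (ENSMUSG00000042228), a Src family kinase gene that acts both on ITAMs and on ITIMs, had 68.4, 68.3 and 79.1 FPKM in LPS plus ultrasound libraries 1, 2 and 3, against 67.2, 71.3 and 80.4 FPKM in LPS libraries 1, 2 and 3. Library 3 was again the highest of both groups, and the log2 difference of -0.02 ± 0.10 (SE; 95% interval -0.24 to 0.21; limma, Benjamini-Hochberg adjusted p = 0.94) changed sign under 5 of 17 alternatives and was -0.03 without LPS library 2. The pseudogene Gm11787, with which Lyn shares sequence, was listed at 2.01, 0 and 0 FPKM in LPS plus ultrasound libraries and at 0, 0 and 2.07 FPKM in LPS libraries. Lyn over Syk was 1.22 ± 0.0598 in LPS plus ultrasound libraries and 1.31 ± 0.124 in LPS libraries (SD, n = 3 each).

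In LPS plus ultrasound libraries the order of levels was Fcer1g, Tyrobp, Lyn, Fcgr3, Syk, Fcgr4, Fcgr1 and Fcgr2b. The ranges of the libraries overlapped between Fcgr3 and Syk and between Fcgr4 and Fcgr1, and were apart between the other neighbours in that order. In LPS libraries the order was Fcer1g, Tyrobp, Lyn, Syk, Fcgr3, Fcgr1, Fcgr4 and Fcgr2b, with overlap between Syk and Fcgr3 and between Fcgr3 and Fcgr1.

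Genes whose levels varied most like those of the members over the 6 libraries were taken by the smallest root mean square difference of centred log2(FPKM + 1). For Fcgr2b they were Tnfaip2, a gene induced by TNF, at 0.021 and Tmem26 at 0.031, and for Fcgr1 the kinase gene Sik2 at 0.018 and Sft2d1 at 0.022. For Fcgr3 they were Dcstamp, a fusion receptor gene of osteoclasts and giant cells, at 0.024 and Adam17, a sheddase gene, at 0.034. For Syk they were Nfe2l2, which encodes NRF2, at 0.016 and Pcmt1 at 0.020. Rbm26 and Ndufb2 lay nearest to Fcgr4, Gm9625 and Gm10240 to Fcer1g, Eed and Smim13 to Tyrobp, and Urb2 and Dctd to Lyn, at 0.010 to 0.031. These are the nearest of 11270 tested genes over 6 libraries, given as a description.

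The upstream sequence of 6 of the 8 genes is in the RefSeq promoter table (GRCm38.p6). Because Fcgr1 is a classical interferon target, its 250 bases before the start are shown, at chr3:96293970-96294219 on the minus strand. Capitals mark TTCNNNGAA, a palindrome known from interferon-responsive promoters, and GAGGAA, a sequence that PU.1 can bind, on either strand.
Fcgr1 upstream: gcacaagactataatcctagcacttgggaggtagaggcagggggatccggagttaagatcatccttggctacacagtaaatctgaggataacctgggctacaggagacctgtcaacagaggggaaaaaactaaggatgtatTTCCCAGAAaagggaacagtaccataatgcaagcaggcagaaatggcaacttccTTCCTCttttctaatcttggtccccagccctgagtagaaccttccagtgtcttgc

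The palindrome occurred in the window of Fcgr1 alone among the 6 genes, against 7.02% of 32851 promoter windows of the same length. The exact letters GAGGAA occurred in the windows of Fcgr1 and Fcgr4, in both Fcgr3 windows and in 1 of the 2 Syk windows, against 23.2% of all windows. They occurred in neither the Fcgr2b nor the Fcer1g window, each of which does hold the shorter GGAA. A match is a description of letters in the window, not a binding site. Spi1, which encodes PU.1, had 153 ± 14.6 FPKM in LPS plus ultrasound libraries and 145 ± 20.5 FPKM in LPS libraries (SD, n = 3 each). Irf8, whose product pairs with PU.1 in myeloid cells, had 1.96 ± 0.937 FPKM in LPS plus ultrasound libraries and 3.88 ± 1.21 FPKM in LPS libraries. Neither gene passed the threshold (limma, Benjamini-Hochberg adjusted p = 0.74 and 0.27).

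The wider pathway was read from lists of named genes, of which 220 of 221 list and marker genes had an identifier. In the lists that follow, 0 tested genes passed the threshold in either direction, without the block or with it, against 0.0177% and 0.115% of all tested genes. Their medians are to be read beside the median of all tested genes, -0.02. Among other Fc receptors 3 of 13 were tested, 1 above 0 and 2 below, with a median of -0.08. Fcrl1, an Fc receptor-like gene known from B cells, had 14.7 ± 0.776 FPKM in LPS plus ultrasound libraries and 12.7 ± 0.956 FPKM in LPS libraries. The neonatal receptor gene Fcgrt had 4.51 ± 0.688 and 5.23 ± 1.29 FPKM, and the cytosolic receptor gene Trim21 had 3.23 ± 0.823 and 3.40 ± 0.230 FPKM, in LPS plus ultrasound and LPS libraries. Fcer1a and Ms4a2, the other chains of the mast cell IgE receptor, were listed at 0 in all 6 libraries.

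Receptors that signal through ITAM chains stood on both sides of 0: of 24 listed genes 14 were tested, 8 above 0 and 6 below, with a median log2 difference of 0.08. Cd300c2, an activating receptor gene, had 5.13, 4.71 and 4.63 FPKM in LPS plus ultrasound libraries, against 6.53, 9.04 and 8.17 FPKM in LPS libraries. The groups do not overlap, yet the log2 difference of -0.60 ± 0.12 (SE) did not pass (limma, Benjamini-Hochberg adjusted p = 0.17; 0.070 in the blocked fit). Pira2, a receptor gene paired with the gamma chain, was separate the other way at 2.12 ± 0.191 FPKM in LPS plus ultrasound libraries and 1.35 ± 0.28 FPKM in LPS libraries, and Trem3, a partner of DAP12, had 3.88 ± 0.712 and 6.80 ± 2.16 FPKM in overlapping groups (log2 differences 0.41 and -0.64; limma, Benjamini-Hochberg adjusted p = 0.22 and 0.26).

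Src family kinases other than Lyn, with their regulators, had 4 tested genes above 0 and 6 below, with a median of -0.10, and 6 of the 10 had an unadjusted limma p below 0.05, 3 higher and 3 lower, against 15.3% of all tested genes. Fgr, a kinase gene of myeloid cells, had 4.75, 4.70 and 6.57 FPKM in LPS plus ultrasound libraries, against 7.22, 12.3 and 11.7 FPKM in LPS libraries. It was separate and lower with ultrasound (log2 difference -0.83 ± 0.21, SE), while the values of Lyn overlapped, and did not pass (limma, Benjamini-Hochberg adjusted p = 0.20; 0.068 in the blocked fit). Ptprj, a phosphatase gene that acts on Src family kinases, had 64.7 ± 3.89 FPKM in LPS plus ultrasound libraries and 56.5 ± 1.5 FPKM in LPS libraries. Whether Fgr differed from Lyn in its response was not tested.

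Below Syk, 32 of 37 listed genes were tested, 16 above 0 and 16 below, with a median of 0.00, and all 8 with an unadjusted limma p below 0.05 lay below 0, against 9.16% of all tested genes that were so and lower and 6.18% that were so and higher. They include members of the module that carries ITAM signals to NF-kB. Malt1, its protease gene, had 4.08, 3.85 and 5.06 FPKM in LPS plus ultrasound libraries, against 6.56, 11.6 and 8.09 FPKM in LPS libraries, and Card9, its scaffold gene, had 22.2 ± 1.39 FPKM in LPS plus ultrasound libraries and 28.1 ± 1.80 FPKM in LPS libraries. Both were separate and lower (log2 differences -0.84 ± 0.19 and -0.33 ± 0.08, SE), and stayed short of the threshold (limma, Benjamini-Hochberg adjusted p = 0.18 and 0.20), while Bcl10, the third part of the module and named after its values were seen, had 27.4 ± 4.04 and 24.5 ± 3.50 FPKM in LPS plus ultrasound and LPS libraries. Blnk, an adaptor gene that Syk phosphorylates, had 17.3 ± 1.06 FPKM in LPS plus ultrasound libraries and 21.1 ± 1.08 FPKM in LPS libraries (log2 difference -0.27 ± 0.08, SE; limma, Benjamini-Hochberg adjusted p = 0.22).

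Inhibitory receptors, phosphatases and other brakes, the side of the pathway to which Fcgr2b belongs, had 9 tested genes above 0 and 15 below. Their median was -0.11, and 53.9% of all tested genes lay below 0. In this list 5 genes were separate and lower and 1 was separate and higher, against 13.4% and 9.8% of all tested genes. Inppl1, which encodes the lipid phosphatase SHIP2, had 25 ± 0.832 FPKM in LPS plus ultrasound libraries and 30.9 ± 2.22 FPKM in LPS libraries. The docking protein genes Dok1 and Dok3 had 14.9 ± 1.38 and 62.5 ± 3.01 FPKM in LPS plus ultrasound libraries, and 19.7 ± 2.47 and 72.9 ± 2.34 FPKM in LPS libraries. These 3 were separate and lower and did not pass (limma, Benjamini-Hochberg adjusted p = 0.21, 0.23 and 0.24). The inhibitory receptor gene Pirb, named after its values were seen, was separate and higher and did not pass either. It had 3.73 ± 0.235 FPKM in LPS plus ultrasound libraries and 2.89 ± 0.128 FPKM in LPS libraries (limma, Benjamini-Hochberg adjusted p = 0.24). The phosphatase genes that the ITIM of Fcgr2b is best known to recruit, named after their values were seen, overlapped: Inpp5d (SHIP1) had 36.8 ± 2.68 and 33.4 ± 3.73 FPKM, and Ptpn6 had 110.1 ± 7.99 and 114 ± 10.1 FPKM, in LPS plus ultrasound and LPS libraries.

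Genes of the phagocytic cup and its actin machinery had 21 of 30 tested members above 0 and 9 below, with a median of 0.07, while 46.1% of all tested genes lay above 0. Arpc1b, an Arp2/3 complex subunit gene, had 110.8, 115 and 99.0 FPKM in LPS plus ultrasound libraries, against 87.4, 92.1 and 90.2 FPKM in LPS libraries. Cfl1, which encodes the actin-severing protein cofilin, had 266 ± 8.01 FPKM in LPS plus ultrasound libraries and 232 ± 3.86 FPKM in LPS libraries, and Brk1, a WAVE complex subunit gene, 137 ± 2.84 and 120.5 ± 8.03 FPKM. All 3 were separate and higher (log2 differences 0.26 ± 0.08, 0.20 ± 0.06 and 0.18 ± 0.07, SE) and did not pass (limma, Benjamini-Hochberg adjusted p = 0.22, 0.24 and 0.30). Of the 30 tested genes 7 were separate and higher and 1 was separate and lower, against 9.8% and 13.4% of all tested genes, and the count above 0 ran from 16 to 23 over the alternatives.

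**Figure D4:**
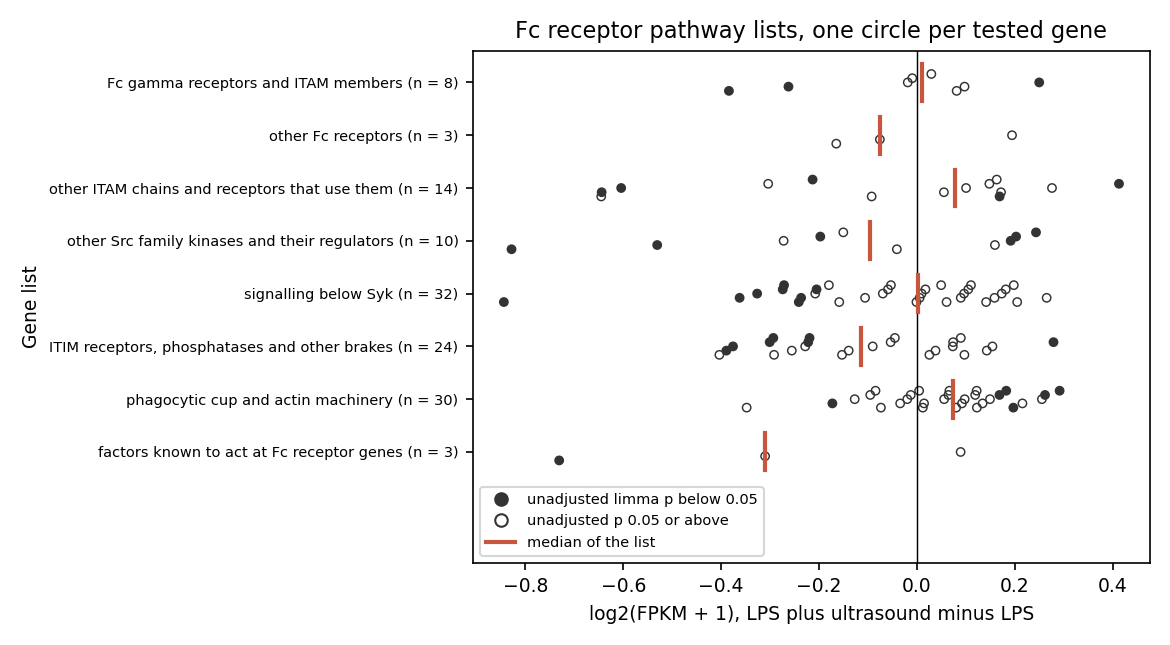
Log2 difference, LPS plus ultrasound minus LPS on log2(FPKM + 1), of each tested gene of the set and of the pathway lists (rows), filled where the unadjusted limma p was below 0.05; red bars mark medians. All 8 filled circles of the row for signalling below Syk lie below 0, while the actin row has its median at 0.07.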

How the data were processed

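Per the labels' protocols, poly(A) RNA was fragmented and read from both ends on an Illumina NovaSeq. The authors deposited FPKM values per gene. For alignment, quantification, annotation and mouse build the entry is "not given in the sources used here". According to the submitters' processing notes the build was the rat assembly mRatBN7.2, and rat muscle is the tissue of the extraction text, yet all 55335 identifiers are mouse and so is the labelled cell line. Counts were not recovered: the lowest steps would mean 25.2 to 29.2 × 10⁶ fragments if each were 1 fragment, so no counting interval is given. FPKM sums ran from 278871 to 292200. A 0 can be a failed estimate, since 10 genes had both a 0 and a value over 5 FPKM. Columns were matched to libraries by the initial and number of the titles, and 55154 identifiers to symbols of GENCODE M21.

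Genes averaging 1 FPKM or more were fitted with limma 3.58.1 (R 4.3.3) on log2(FPKM + 1), with trended and robust variance moderation; tests were two-sided and Benjamini-Hochberg adjusted over all 11270. The fit was tested on simulated data. Across genes, deviations of same-numbered libraries from their group means correlated at 0.18, 0.44 and 0.41. The titles' numbers were therefore taken to pair them, and the replicate block is an alternative. Libraries of different numbers were not compared in this way, so the correlations do not establish a pairing. Others were the pseudocount, filter, scaling, moderation, array weights and leaving out libraries. Members and lists were chosen with earlier results of these data known. Named are all members, up to 3 genes per list by smallest p, the highest marker per cell type and the 2 nearest patterns per member. Some genes that this rule names are not reported here.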

Additional observations from a re-analysis of the deposited data

How the results depend on the processing

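Under all 17 alternatives 0 of the 8 members passed the threshold. Fcgr1, Fcgr2b, Fcgr3 and Tyrobp kept their direction, with log2 differences of -0.32 to -0.18, -0.47 to -0.27, 0.13 to 0.32 and 0.05 to 0.15. Part of that was fixed in advance, since the filters and the moderation cannot change a member's log2 difference. Nor can leaving out libraries turn Fcgr1 or Fcgr2b, whose groups do not overlap. With the replicate block no member's call changed. Its log2 differences could not move, since each number has 1 library in each group, and only standard errors and p-values could change. The number of members below 0, 4 in the reported fit, was 2 with median-ratio scaling, 5 with array weights and 2 to 4 with 1 library left out. The members near 0 turned sign. With median-ratio scaling Fcer1g was at 0.0101 and Lyn at 0.00060, and with array weights Fcgr4 was at -0.0517. Without both libraries numbered 2, Fcgr4 was at -0.0457 and Lyn at 0.0018. With 1 library left out, Fcer1g ran from -0.0665 to 0.0474, Lyn from -0.0876 to 0.0525, Fcgr4 from -0.0377 to 0.0789 and Syk from -0.00851 to 0.19. The cause was not tested. Genes past the threshold over all genes, 2 in the reported fit, numbered 1 with a mean of at least 5 FPKM, 5 with the same FPKM sum, 223 with array weights, 13 with the replicate block, 6 without both libraries numbered 2, and 2 to 8 with 1 library left out. Pathway list genes past the threshold numbered 2 with array weights, Malt1 and Inppl1, both lower, and 0 otherwise. The log2 differences of the ratios to Fcgr2b stayed above 0. They ran from 0.51 to 0.76 for Fcgr3, 0.30 to 0.52 for Fcgr4 and 0.06 to 0.18 for Fcgr1. Leaving out a library could not turn their sign, since the groups of each ratio do not overlap. Pairing the libraries by number could not move them from 0.66, 0.43 and 0.13, since the mean of paired differences equals the difference of means. Counts above 0 in the lists were recomputed after the data were seen. Leaving out a library leaves an arm of 2.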
